A study of Mus musculus with 6 samples.

Results

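The genes examined were the molecular chaperones whose symbol begins with Dnaj, Hspa, Hspb, Hspd, Hspe, Hsph or Hsp90, or with Cct and a digit. By this name rule 147 of 45281 probes on the array were found, which stand for 77 of 19057 genes with a symbol of their own. They were measured in 3 samples of the D3 line of mouse embryonic stem (ES) cells, maintained on gelatin with leukemia inhibitory factor (passage 21), and in 3 samples of MIN6, an insulin-secreting tumor line of mouse β-cells (passage 23), with 1 Illumina expression BeadChip (Mouse WG-6 v2.0) for each sample. MIN6 cells come from a tumor of a mouse that expressed the SV40 large T antigen under the insulin promoter. The labels name no treatment of either line, both were grown in DMEM with serum and 2-mercaptoethanol, and they differed in serum level and in the cytokine, so that cell line and culture medium cannot be told apart. Each group is 1 cell line, with no second ES or β-cell line beside it. The 5 ES cell markers listed (Nanog, Pou5f1, Sox2, Zfp42 and Esrrb) were above background on every D3 array and on no MIN6 array, and the 5 β-cell markers (Ins2, Pdx1, Nkx6-1, Iapp and Slc30a8) were above background on every MIN6 array and on no D3 array. Of 8 fibroblast and feeder markers, 3 (Thy1, Fn1 and Acta2) were above background in D3 cells and none in MIN6 cells, while Col1a1, Col1a2 and Col3a1 were at background on all arrays. The log2 summed signal of these 8 markers was 12.50 to 12.57 on the D3 arrays and 9.96 to 10.04 on the MIN6 arrays. The sum includes signals at background, those of 5 markers in D3 cells and of all 8 in MIN6 cells. The part of these markers in the differences below was not tested. In such bulk samples, fewer cells of a type and less RNA per cell cannot be told apart.

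Chaperones bind unfolded stretches of other proteins and help them fold. Members of the Hsp70 family (Hspa genes) bind and release clients in an ATP-driven cycle, J-domain proteins (Dnaj genes) deliver clients and trigger ATP hydrolysis, and nucleotide exchange factors such as the Hsp110 proteins reset the cycle. Hsp90 proteins act late in the folding of kinases and receptors, small heat shock proteins (Hspb genes) hold unfolding proteins without ATP, and the chaperonins, Hspd1 with Hspe1 in mitochondria and the CCT ring in the cytosol, enclose their clients in a chamber. The endoplasmic reticulum (ER) has its own set, led by Hspa5 (BiP) and Hsp90b1 (Grp94), which serves secreted proteins such as proinsulin in β-cells and which the unfolded protein response induces when unfolded protein builds up in the ER. Part of the cytosolic set is induced by heat shock factor.

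All values below are log2 signals after quantile normalization between the 6 arrays, given in the order of replicates 1, 2 and 3, and of several probes the one brightest on average stands for the gene. Genes were called higher or lower in MIN6 cells where they differed by 1.5-fold or more with a limma p-value under 0.05 after Benjamini-Hochberg adjustment across the array. Detection above background was set at a detection p under 0.01. Where a line had no array above background, the fold is given as "at least", from the dimmest signals that were still detected there, and without detection in both lines no fold is given. Signals of different probes were not compared with each other. With 3 arrays for each line, their number limits the precision of every value.

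Of the 77 chaperone genes, 16 were higher in MIN6 than in D3 cells (20.8%, against 17.1% of all 19057 genes) and 24 were lower (31.2%, against 17.5% of all genes), while 37 were not called. The median change over the 77 genes was -0.04 on the log2 scale, against -0.01 over all genes. All 40 called genes had separate D3 and MIN6 values, with no overlap. In all, 51 of the 77 genes had no overlap, and so had 54.4% of all genes. Of the 77 genes, 47 were above background on all 6 arrays and 14 on none, and of all 19057 genes 7223 and 8204 were. Among all genes above background on all 6 arrays, 27.3% were higher and 28.9% lower in MIN6 cells, and of the 47 chaperones 11 were higher and 19 lower. At a threshold of 2-fold on the fitted change, 13 of the 77 genes were higher and 17 lower, against 11.3% and 10.9% of all genes.
By compartment, of 8 chaperones of the ER lumen 5 were higher and none was lower, whereas of 50 cytosolic and nuclear members 8 were higher and 19 lower, and without the CCT ring 8 of 42 were higher and 11 lower. The median change was 0.98 on the log2 scale in the ER lumen, -0.40 in mitochondria, -1.08 in the CCT ring and -0.04 over all cytosolic and nuclear members (0.04 without the CCT ring). These lists were compared by their counts and medians only, with no test of the difference between them.

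**Figure D1:**
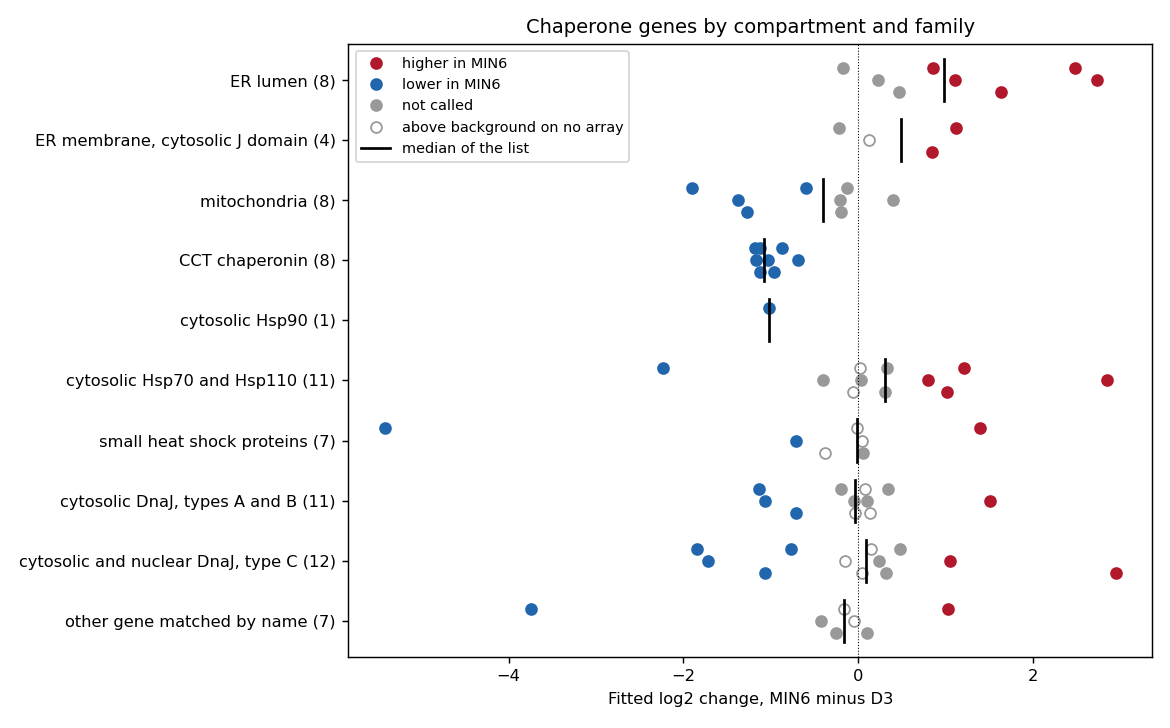
Fitted log2 change (MIN6 minus D3, x axis) of each of the 77 chaperone genes, 1 point per gene, in rows by compartment and family with the number of genes in parentheses. Filled red and blue points passed the test, grey points did not, open points were above background on no array, and black bars are list medians, which run from 0.98 in the ER lumen to -1.08 in the CCT ring.

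The 5 chaperones of the ER lumen that were higher in MIN6 cells were the co-chaperones Dnajc3, Dnajb9 and Dnajc10, the Hsp70 protein Hspa5 and the Hsp90 protein Hsp90b1. Dnajc3 (p58IPK), a J-domain protein that holds unfolded clients for Hspa5, measured 8.54, 8.58 and 8.47 in D3 cells and 11.31, 11.31 and 11.17 in MIN6 cells. It was 6.67-fold higher in MIN6 cells (log2 change of 2.74, standard error 0.10, adjusted p = 9.53e-16). Dnajb9 (ERdj4), a J-domain protein bound up with ER-associated degradation, gave 10.38, 10.44 and 10.47 on the D3 arrays against 12.84, 12.85 and 13.07 on the MIN6 arrays, which was 5.61-fold higher in MIN6 cells (log2 change of 2.49, standard error 0.10, adjusted p = 8e-15). In both genes the lines were separated by more than the spread of either, and a second Dnajb9 probe that was above background on all arrays had a similar change of 2.23 on the log2 scale. The second Dnajc3 probe was above background on no array and was not called. With the mean of both its probes Dnajc3 had a log2 change of 1.28 and was still called.
Hspa5, the main Hsp70 of the ER, had signals of 9.12, 8.98 and 8.92 on the D3 arrays and of 10.69, 10.28 and 10.96 on the MIN6 arrays. It was 3.11-fold higher in MIN6 cells (log2 change of 1.64, standard error 0.13, adjusted p = 8.48e-10). The MIN6 arrays varied more (SD 0.34) than the D3 arrays (SD 0.10) for this gene, with replicate 3 the highest, but every MIN6 value lay above every D3 value. Dnajc10 (ERdj5), which also carries disulfide reductase activity, measured 11.69, 11.57 and 11.63 in D3 cells and 12.75, 12.80 and 12.65 in MIN6 cells, and was 2.16-fold higher in MIN6 cells (log2 change of 1.11, standard error 0.10, adjusted p = 2.75e-09). Of its 3 other probes, 2 were also called higher, 1 of them above background on no D3 array, and the remaining one was above background on no array and was not called. Hsp90b1, the Hsp90 of the ER, gave 13.50, 13.25 and 13.37 on the D3 arrays against 14.12, 14.27 and 14.30 on the MIN6 arrays, and was 1.81-fold higher in MIN6 cells (log2 change of 0.86, standard error 0.10, adjusted p = 2.95e-07). The groups did not overlap.
The other 3 members of this compartment were not called. Hspa13, a divergent Hsp70 of the microsomal fraction, had signals of 7.03, 7.12 and 7.61 on the D3 arrays and of 7.70, 7.61 and 7.88 on the MIN6 arrays, close to background on all arrays and above it on 1 MIN6 array only, so that no fold is given. Dnajc1 (ERdj1), a membrane-anchored J-domain protein that contacts ribosomes, measured 7.74, 7.47 and 7.85 in D3 cells and 7.74, 7.92 and 8.08 in MIN6 cells, with overlapping values (log2 change of 0.22, standard error 0.11, adjusted p = 0.141). Dnajc16 (ERdj8) gave 10.25, 10.08 and 10.13 on the D3 arrays against 10.17, 9.91 and 9.87 on the MIN6 arrays by its brightest probe, again with overlap (log2 change of -0.17, standard error 0.10, adjusted p = 0.243). A second Dnajc16 probe, above background on all 6 arrays, was called higher in MIN6 cells at 1.79-fold (adjusted p = 5.16e-07), and the one ranked 3 was not called (log2 change of 0.22, adjusted p = 0.21), so the probes of this gene disagree. Without D3 replicate 3, Hspa13 was called higher with a fitted log2 change of 0.67, and 6 of the 8 genes were then higher. Of the 20 probes for the 8 genes, 9 were above background on all arrays, of which 8 were called higher and none lower (24.7% and 29.7% of all probes above background on every array). These 9 probes belong to 6 genes, of which 5 were called higher, and 1 of the 8 is the second Dnajc16 probe. The co-chaperone Dnajb11 was not analysed here.

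**Figure D2:**
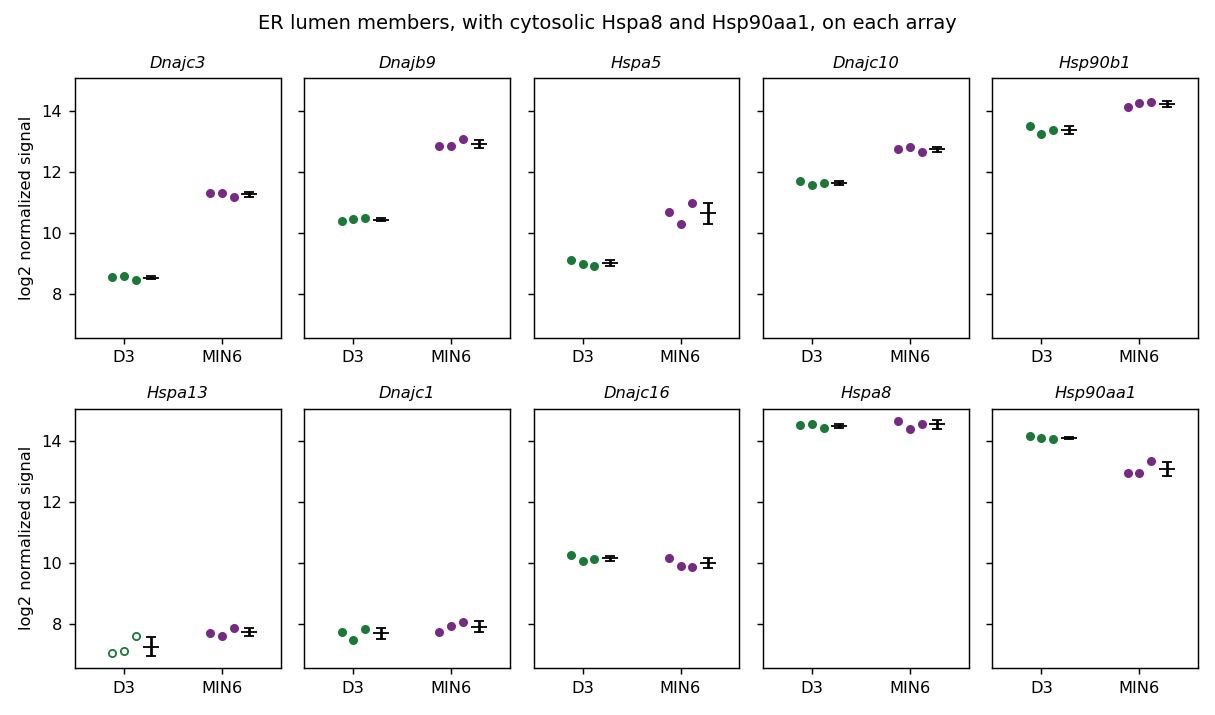
Log2 normalized signal (y axis) on the 3 D3 and 3 MIN6 arrays for the 8 ER lumen members and for Hspa8 and Hsp90aa1 of the cytosol, 1 point per array, with mean and SD as black bars and open points where no array of that line was above background. The 5 genes from Dnajc3 to Hsp90b1 lie higher in MIN6 cells without overlap, Hspa8 overlaps and Hsp90aa1 lies lower.

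The promoters of the 4 ER genes below are shown because 3 of them hold the ER stress response element, a sequence through which the unfolded protein response acts and which consists of CCAAT and CCACG with 9 bases between them. It was searched on both strands in the 250 bases before each annotated start in RefSeq (GRCm38.p6), in which 64 of the 77 genes had a window. It was found in 35 of 27025 genes (0.13%), among them the chaperones Hspa5, Hsp90b1 and Dnajc3 and no other member. The related element of ATTGG and CCACG with 1 base between them was in 10 genes (0.037%) and in no member. Sequences run 5′ to 3′ on the strand of the gene, and capitals mark the matches.
Hspa5, chr2:34771840-34772089, plus strand: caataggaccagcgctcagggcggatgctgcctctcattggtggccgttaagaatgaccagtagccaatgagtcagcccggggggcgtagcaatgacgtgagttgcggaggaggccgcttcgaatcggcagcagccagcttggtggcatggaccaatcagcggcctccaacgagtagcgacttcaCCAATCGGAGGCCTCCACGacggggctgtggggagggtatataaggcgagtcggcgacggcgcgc
Hsp90b1, chr10:86705445-86705694, minus strand: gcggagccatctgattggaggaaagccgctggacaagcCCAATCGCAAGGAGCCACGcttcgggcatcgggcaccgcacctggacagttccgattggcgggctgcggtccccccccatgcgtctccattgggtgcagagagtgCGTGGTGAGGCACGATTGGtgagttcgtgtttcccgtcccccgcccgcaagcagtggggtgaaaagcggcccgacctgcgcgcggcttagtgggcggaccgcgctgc
Dnajc3, chr14:118937682-118937931, plus strand: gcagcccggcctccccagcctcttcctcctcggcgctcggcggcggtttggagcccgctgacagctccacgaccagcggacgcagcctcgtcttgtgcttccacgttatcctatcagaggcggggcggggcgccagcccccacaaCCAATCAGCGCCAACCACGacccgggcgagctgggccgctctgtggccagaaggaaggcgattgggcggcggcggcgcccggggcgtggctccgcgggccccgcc
Dnajb9, chr12:44210069-44210318, minus strand: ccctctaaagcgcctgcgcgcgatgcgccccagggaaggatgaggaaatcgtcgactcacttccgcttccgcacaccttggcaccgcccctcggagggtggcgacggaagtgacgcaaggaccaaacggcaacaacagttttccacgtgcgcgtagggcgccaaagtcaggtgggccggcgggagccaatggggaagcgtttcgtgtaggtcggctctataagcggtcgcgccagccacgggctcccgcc
Counted from the start, the match lay at -65 to -47 in Hspa5 and at -105 to -87 in Dnajc3, and Hsp90b1 had a match on each strand. All 3 members with the element were called higher in MIN6 cells, against 27.3% of all genes above background on every array. They are among the ER lumen genes already described, so this is no separate result. The part of the element in their change was not tested. The calls of the other genes with the element were not examined here. Dnajb9, which was also higher, had no match to these letters in its window. A match of letters is a description of the sequence and no measure of binding.

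Among 4 J-domain proteins that sit in the ER membrane with the J domain on the cytosolic side, 2 were higher in MIN6 cells. Over all genes the share was 17.1%. Dnajc14 had signals of 7.41, 7.20 and 7.45 on the D3 arrays and of 8.29, 8.51 and 8.63 on the MIN6 arrays. No D3 array was above background, and it was higher in MIN6 cells by at least 1.62-fold (fitted log2 change of 1.12, standard error 0.11, adjusted p = 1.68e-08). Dnajc18 was 1.80-fold higher (standard error 0.11 on the log2 scale, adjusted p = 8e-07), and 2 of its D3 signals exceeded background. Dnajb12, a partner of cytosolic Hsp70 in membrane protein quality control, was not called (log2 change of -0.22, standard error 0.11), and Dnajb14 was above background on no array. With the mean of both its probes Dnajc14 had a log2 change of 0.56 and was no longer called. Dnajc25, a J-domain protein with a membrane span that was left outside the compartment lists, measured 8.15, 8.002 and 8.15 in D3 cells and 8.97, 9.06 and 9.35 in MIN6 cells, and was 2.04-fold higher in MIN6 cells (log2 change of 1.03, standard error 0.11, adjusted p = 6.15e-08).

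In mitochondria, the chaperonin pair and the mitochondrial Hsp70 were lower in MIN6 cells. Hspe1 (Hsp10), the lid of the chaperonin, gave 13.13, 13.08 and 13.06 on the D3 arrays against 11.10, 11.09 and 11.36 on the MIN6 arrays, and was 3.75-fold lower in MIN6 cells (log2 change of -1.91, standard error 0.10, adjusted p = 1.01e-12). Hspd1 (Hsp60), the barrel, had signals of 14.70, 14.28 and 14.33 on the D3 arrays and of 13.19, 13.16 and 13.15 on the MIN6 arrays, and was 2.41-fold lower in MIN6 cells (log2 change of -1.27, standard error 0.11, adjusted p = 2.98e-09). The values of the lines were apart in both genes, and a second Hspd1 probe, above background on all arrays, fell by 1.85 on the log2 scale. Hspe1 and Hspd1 are neighbours on mouse chromosome 1 and are transcribed in opposite directions from overlapping promoter windows, in which a heat shock element lies. That element was searched on both strands as GAA, TTC and GAA with 2 bases between neighbours and was found in 139 of 27025 genes (0.514%), among the members also in Dnajb6. The search took these exact letters in the 250 bases before the start, and 64 of the 77 members had a window. Elements with other letters or farther from the start would be missed. The element of Hspe1 and Hspd1 is shown with its flanks on the Hspe1 strand, with capitals for 2 overlapping matches.
Hspe1, chr1:55088053-55088082, plus strand: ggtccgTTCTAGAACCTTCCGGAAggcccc
The capitals lie at -89 to -72 from the Hspe1 start. Both genes that share them were called lower, against 28.9% of all genes above background on every array. The matches of these genes are the same bases, so the genes are not separate cases. The part of the element in their change was not tested. Dnajb6 was not called by its brightest probe. Hspa9 (mortalin), the Hsp70 that pulls precursors into the matrix, measured 14.39, 14.36 and 14.36 in D3 cells and 13.66, 13.71 and 13.94 in MIN6 cells, and was 1.52-fold lower in MIN6 cells (log2 change of -0.60, standard error 0.10, adjusted p = 3.38e-05). This change is near the 1.5-fold threshold: it was -0.45 on the log2 scale and not called with cyclic loess, and -0.55 and -0.57 and not called without MIN6 replicate 1 or replicate 2. A second Hspa9 probe fell by 1.06 on the log2 scale. Dnajc11, which associates with the complex that shapes the inner membrane, gave 9.87, 9.61 and 9.85 on the D3 arrays against 8.42, 8.43 and 8.36 on the MIN6 arrays, and was 2.59-fold lower in MIN6 cells (log2 change of -1.37, standard error 0.10, adjusted p = 1.77e-10). Its other probes lay at or near background, and with the mean of all its probes it was not called (log2 change of -0.41).
The remaining mitochondrial members, Dnaja3, Dnajc15, Dnajc19 and Dnajc30, were above background on all arrays and were not called, with changes from -0.20 to 0.40 on the log2 scale. For Dnajc19, an import co-chaperone, the brightest probe had a change of -0.19, whereas 2 other probes that were above background only in MIN6 cells were called higher, at least 1.53-fold and at least 1.06-fold. Of all 8 mitochondrial members 4 were lower and none was higher. Among all genes above background on every array, 28.9% were lower and 27.3% higher.

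All 8 measured genes of the CCT chaperonin, the ring-shaped chamber that folds actin and tubulin, were lower in MIN6 cells. Over all genes the share was 17.5%. Cct4 had signals of 13.85, 14.02 and 13.85 on the D3 arrays and of 12.67, 12.66 and 12.85 on the MIN6 arrays, and was 2.27-fold lower in MIN6 cells (log2 change of -1.18, standard error 0.10, adjusted p = 2.05e-09). Cct3 measured 13.91, 13.71 and 13.88 in D3 cells and 12.58, 12.68 and 12.74 in MIN6 cells, and was 2.24-fold lower in MIN6 cells (log2 change of -1.16, standard error 0.10, adjusted p = 1.99e-09). A second Cct3 probe, above background on all arrays, fell by 1.36 on the log2 scale. Among the 7 subunits above background on all arrays, which are Cct2, Cct3, Cct4, Cct5, Cct6a, Cct7 and Cct8, the folds lay between 1.83 and 2.27, with adjusted p-values of at most 8.16e-07. For each of them every MIN6 value lay below every D3 value. Cct6b, a testis-enriched isoform, was above background on 2 D3 arrays and no MIN6 array and was at least 1.07-fold lower. Tcp1, the remaining subunit of the ring, does not carry the Cct name and was 1.504-fold lower (log2 change of -0.59, standard error 0.10, adjusted p = 4.36e-05). Cct8l1, a Cct8-like gene, was above background on no array.

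**Figure D3:**
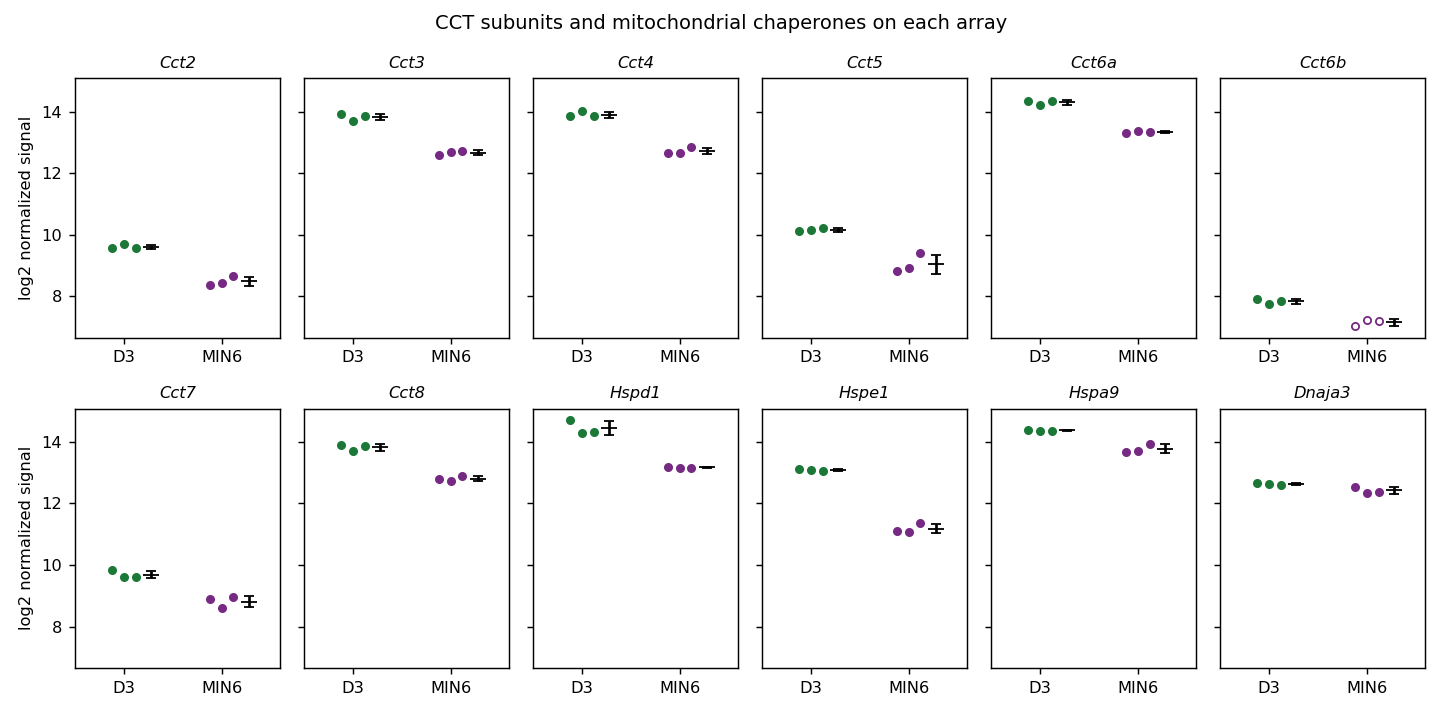
Log2 normalized signal (y axis) on the 3 D3 and 3 MIN6 arrays for 8 CCT genes and 4 mitochondrial chaperones, 1 point per array, with mean and SD as black bars and open points where no array of that line was above background. The CCT genes, Hspd1, Hspe1 and Hspa9 lie lower in MIN6 cells without overlap, and Dnaja3, with a change of -0.20 on the log2 scale, was not called.

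Of the main cytosolic Hsp70 and Hsp90 genes, Hspa8 was not called and Hsp90aa1 was lower in MIN6 cells. Hspa8 (Hsc70), the constitutive Hsp70, gave 14.53, 14.55 and 14.44 on the D3 arrays against 14.67, 14.40 and 14.56 on the MIN6 arrays, with overlap between the lines. Its change was 0.04 on the log2 scale (standard error 0.10, adjusted p = 0.822), and it turned to -0.13 with median scaling and to -0.02 without MIN6 replicate 1, neither of them called. Hsp90aa1, the inducible Hsp90 of the cytosol, had signals of 14.15, 14.09 and 14.06 on the D3 arrays and of 12.96, 12.96 and 13.36 on the MIN6 arrays, and was 2.02-fold lower in MIN6 cells (log2 change of -1.01, standard error 0.11, adjusted p = 1.05e-07). A second Hsp90aa1 probe, also above background on all arrays, was 3.89-fold lower (adjusted p = 1.03e-10), so the size of this change depends on the probe. Hsp90ab1 was not analysed here.
The exchange factor Hspa4 (Apg-2), an Hsp110 protein, measured 11.46, 11.37 and 11.49 in D3 cells and 9.03, 9.29 and 9.30 in MIN6 cells, and was 4.71-fold lower in MIN6 cells (log2 change of -2.24, standard error 0.10, adjusted p = 7.96e-14). Its relative Hsph1 (Hsp110) gave 12.41, 12.10 and 12.20 on the D3 arrays against 11.80, 11.85 and 11.86 on the MIN6 arrays, with values apart but a log2 change of only -0.40 (standard error 0.10, adjusted p = 0.00273), under the fold threshold. The third of these proteins, Hspa4l, was above background only in MIN6 cells and was at least 1.71-fold higher (adjusted p = 1.77e-07). Of the 3 Hsp110 genes, 1 was lower, 1 was higher and 1 was not called. A second Hspa4 probe was above background on no array, so the Hspa4 fold rests on 1 probe.
The heat-inducible Hspa1a and Hspa1b were at background in D3 cells and dim in MIN6 cells. Hspa1a had signals of 7.35, 7.29 and 7.49 on the D3 arrays and of 8.14, 8.28 and 8.12 on the MIN6 arrays, and was higher in MIN6 cells by at least 1.32-fold (fitted log2 change of 0.80, standard error 0.10, adjusted p = 6.12e-07). Hspa1b measured 7.58, 7.41 and 7.49 in D3 cells and 7.81, 7.93 and 7.74 in MIN6 cells, a log2 change of 0.33 (standard error 0.10, adjusted p = 0.0093) that was not called and is at least 1.03-fold. These genes are near-identical, so signal cannot be assigned to one of them with certainty. The Hspa1a call was lost in the authors' processed values (log2 change of 0.50) and with the mean of its probes (0.32). Immediate early genes are known to respond to handling. Of 8 such genes listed, 4 were higher in MIN6 cells (Fos, Fosb, Jun and Egr1) and none was lower. The shares over all genes were 17.1% and 17.5%. Fos was 22.9-fold and Egr1 7.59-fold higher. Junb and Dusp1 were above background on all arrays and were not called (log2 changes of 0.48 and 0.37). Atf3 and Ier2 were above background on no array, and the part of handling in the Hspa1a difference was not tested.
Hspa12b, a divergent Hsp70 relative known from endothelium, gave 6.83, 7.22 and 7.05 on the D3 arrays against 9.99, 9.80 and 9.87 on the MIN6 arrays. No D3 array was above background, and it was higher in MIN6 cells by at least 4.32-fold (fitted log2 change of 2.86, standard error 0.11, adjusted p = 3.68e-15). Hspa2, an Hsp70 needed in male germ cells, had signals of 9.83, 10.001 and 9.85 on the D3 arrays and of 11.17, 11.15 and 11.02 on the MIN6 arrays, and was 2.33-fold higher in MIN6 cells (log2 change of 1.22, standard error 0.10, adjusted p = 8.77e-10). A second Hspa2 probe, also above background on all arrays, had a change of 1.04 on the log2 scale. Of all 11 genes of cytosolic Hsp70 and Hsp110, 4 were higher and 1 was lower, against 17.1% and 17.5% of all genes. The remaining 6 were not called, 2 of which (Hspa14 and Hspa1l) were above background on no array. Hspa12a, a brain relative of Hspa12b, was above background on 1 array of each line and was not called (log2 change of 0.31, adjusted p = 0.0557).

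Among the small heat shock proteins, Hspb1 (Hsp27 of human, Hsp25 of mouse), which holds unfolding proteins and binds actin filaments, measured 13.14, 13.01 and 13.38 in D3 cells and 7.90, 7.37 and 8.01 in MIN6 cells. It was 42.7-fold lower in MIN6 cells (log2 change of -5.42, standard error 0.14, adjusted p = 4.55e-18). The MIN6 signals lay at the edge of detection, above background on 2 of the arrays, so the size of the fold rests on values near background. A second Hspb1 probe was above background on no array, and the mean of both probes had a log2 change of -2.72. Hspbap1, named for its binding to Hspb1 and not itself a chaperone, gave 12.70, 12.49 and 12.24 on the D3 arrays against 8.87, 8.76 and 8.56 on the MIN6 arrays, and was 13.4-fold lower in MIN6 cells (log2 change of -3.74, standard error 0.12, adjusted p = 1.47e-16). Hspb6 (Hsp20), a small heat shock protein best known from muscle, had signals of 11.32, 11.18 and 11.21 on the D3 arrays and of 12.64, 12.56 and 12.70 on the MIN6 arrays, and was 2.64-fold higher in MIN6 cells (log2 change of 1.40, standard error 0.10, adjusted p = 6.9e-11). Hspb8, which works with the exchange factor Bag3, was above background on all arrays and was not called (log2 change of 0.06, standard error 0.10, adjusted p = 0.709). Hspb2 was above background only in D3 cells and was at least 1.13-fold lower. The other 3 small heat shock genes, Hspb3, Hspb7 and Hspb9, were above background on no array. Of the 8 fibroblast and feeder markers, Thy1, Fn1 and Acta2 were likewise above background in D3 cells alone. The other 5 were above background on no array, and the part of these markers in the Hspb1 difference was not tested.

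Among J-domain proteins of the cytosol and nucleus, 1 was higher and 3 were lower of 11 of types A and B. Of 12 of type C, 2 were higher and 4 lower. The shares over all genes were 17.1% higher and 17.5% lower. Dnajc12, a co-chaperone of the aromatic amino acid hydroxylases, measured 8.20, 8.24 and 8.23 in D3 cells and 11.16, 11.20 and 11.17 in MIN6 cells. It was 7.75-fold higher in MIN6 cells (log2 change of 2.95, standard error 0.09, adjusted p = 1.5e-16), and a second probe, above background on 2 of the D3 arrays, had a change of 3.11. Dnajb2, a co-chaperone enriched in neurons, gave 8.73, 8.58 and 9.10 on the D3 arrays against 10.45, 10.48 and 10.01 on the MIN6 arrays, and was 2.85-fold higher in MIN6 cells (log2 change of 1.51, standard error 0.13, adjusted p = 4.27e-09). Dnajc6 (auxilin), which recruits Hsp70 to strip clathrin from vesicles, had signals of 11.22, 11.28 and 11.18 on the D3 arrays and of 12.28, 12.28 and 12.27 on the MIN6 arrays, and was 2.07-fold higher in MIN6 cells (log2 change of 1.05, standard error 0.09, adjusted p = 4.43e-09). The vesicle protein Dnajc5 (cysteine string protein) had values apart but a change of only 0.32 on the log2 scale (standard error 0.10, adjusted p = 0.0112) and was not called.
Among the decreases, Dnajc2 (Mpp11), which acts with Hsp70 on nascent chains at the ribosome, measured 12.19, 12.27 and 12.24 in D3 cells and 10.39, 10.38 and 10.40 in MIN6 cells, and was 3.58-fold lower in MIN6 cells (log2 change of -1.84, standard error 0.09, adjusted p = 4.37e-13). Dnajc8, a spliceosome-associated protein, gave 11.70, 11.79 and 11.73 on the D3 arrays against 10.02, 10.01 and 10.05 on the MIN6 arrays, and was 3.29-fold lower in MIN6 cells (log2 change of -1.72, standard error 0.09, adjusted p = 1.48e-12). Second probes of both, above background on all arrays, had log2 changes of -1.54 for Dnajc2 and -1.90 for Dnajc8. Dnajc17, also known from splicing, was 1.70-fold lower (adjusted p = 1.92e-05). Dnajc7, which binds both Hsp70 and Hsp90, was 2.08-fold lower (adjusted p = 1.1e-07) and Dnaja2, a general co-chaperone of Hspa8, 2.09-fold lower (adjusted p = 5.64e-09). Dnajb13, a protein of sperm flagella, had signals of 8.55, 8.78 and 8.98 on the D3 arrays and of 7.52, 7.74 and 7.64 on the MIN6 arrays, and was 2.20-fold lower in MIN6 cells (log2 change of -1.14, standard error 0.11, adjusted p = 1.97e-08), with 1 of the MIN6 arrays above background. The Dnajb4 probe that stands for the gene was above background only in D3 cells and was at least 1.49-fold lower (adjusted p = 9.04e-06), whereas its second probe, above background on 2 D3 arrays and 1 MIN6 array, had overlapping values and was not called (log2 change of -0.23, adjusted p = 0.132).
The heat-inducible Dnajb1 (Hsp40), the partner of Hspa8 in the refolding of proteins, was above background on all arrays and was not called (log2 change of 0.11, standard error 0.10, adjusted p = 0.465). Dnajb6, which keeps polyglutamine proteins soluble, gave different calls by probe. Its brightest probe and the one ranked 3 had log2 changes of -0.19 and -0.16 and were not called, whereas a second probe was 2.63-fold lower (adjusted p = 8.11e-11), with all 3 above background on every array. A further probe, above background on 2 D3 arrays alone, was not called (fitted log2 change of -0.54). Which transcripts these probes match was not analysed here. Dnajc27, which has a small GTPase domain, had values apart but was under the fold threshold (log2 change of 0.48, standard error 0.11, adjusted p = 0.000768), and Dnajc24, a co-factor of diphthamide synthesis, was not called (log2 change of 0.24, adjusted p = 0.081). Dnaja1, a partner of Hspa8, was above background on 1 MIN6 array and Dnajb3 on 3 arrays in all, and neither was called. Dnajb5, Dnajb7, Dnajb8, Dnajc5b, Dnajc5g and Dnajc9 were above background on no array. Of the members outside the compartment lists that are not described above, Hspbp1, an exchange factor of Hsp70, Dnajc4 and Dnajc28 were above background on all arrays and were not called, with log2 changes from -0.42 to 0.11, and Hspb11 was above background on no array. Dnaja4, Dnajc13, Dnajc21 and Dnajc22 were not analysed here.

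Across the 77 genes, 43 had more than 1 probe. In 18 genes 2 or more probes were above background on all 6 arrays, and in 16 of them these probes gave the same call. The exceptions were Dnajb6 and Dnajc16. Of all 147 probes, 26 were called higher (12.5% of all probes on the array were) and 34 lower (13.4% were), 67 were above background on all arrays and 52 on none.

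**Figure D4:**
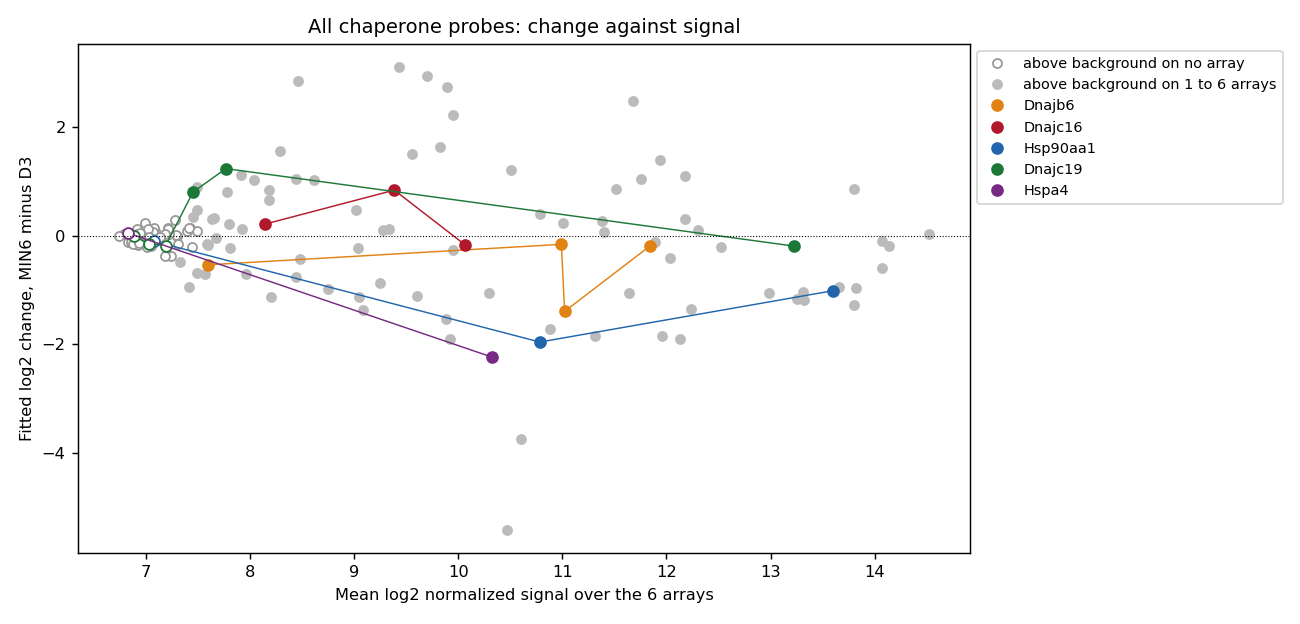
Fitted log2 change (MIN6 minus D3, y axis) of each of the 147 chaperone probes against its mean log2 normalized signal (x axis), with lines joining the probes of 5 genes and open points for probes above background on no array. The Dnajb6 probes above background on all arrays run from -0.16 to -1.39 and those of Dnajc16 from -0.17 to 0.84, and both such Hsp90aa1 probes lie below 0.

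Co-chaperones and other pathway genes without these names, among them heat shock factors and crystallins, were examined as a separate list of 40 genes. Of these, 39 were measured, with 12 higher, 14 lower and 13 not called. These counts stand beside 27.3% higher and 28.9% lower among all genes above background on every array, as most of the list was. All 5 listed partners of Hspa5 in the ER were higher in MIN6 cells. Sdf2l1, which supports the Hspa5 cycle, was 6.19-fold higher, Sec63, the J-domain protein of the translocon, 2.84-fold, Hyou1 (Grp170), an ER exchange factor, 2.05-fold, Sdf2 1.88-fold and Sil1, another exchange factor, 1.71-fold (adjusted p of at most 1.47e-06 among them). Of 5 listed partners of mitochondrial Hspa9, 3 were lower and none was higher. Trap1, the Hsp90 of mitochondria, was 3.97-fold lower (adjusted p = 8.73e-12), the exchange factor Grpel1 2.00-fold and the import motor subunit Timm44 1.97-fold lower.
In the cytosol, 4 of 8 Hsp90 co-chaperones were lower and 1 was higher. The peptidyl-prolyl isomerases Ppid and Fkbp5 were 2.29- and 2.22-fold lower, the ATPase activator Ahsa1 2.13-fold and p23 (Ptges3) 1.61-fold lower, while Unc45a, a myosin chaperone, was 1.97-fold higher. Of 10 exchange factors and co-factors of Hsp70, 3 were higher, 3 lower and 4 were not called. Stip1 (Hop) and St13 (Hip), which link Hsp70 to Hsp90, were 2.19- and 2.55-fold lower, and the ubiquitin ligase Stub1 (Chip) was 2.33-fold higher. Of 6 genes of the chaperonin and of prefoldin, which hands actin and tubulin to CCT, 3 were lower (Tcp1, Pfdn2 and Pfdn4) and Pfdn5 was 1.88-fold higher. Of the heat shock factors, Hsf2 was not called (log2 change of -0.26, adjusted p = 0.0775), Hsf4 was at least 2.05-fold higher, and Hsbp1, a protein that binds heat shock factor, was 3.49-fold higher. Hsf1 was not analysed here. The crystallin Cryab was above background on 2 D3 arrays only and was at least 1.29-fold lower, and Cryaa was above background on no array.

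**Figure D5:**
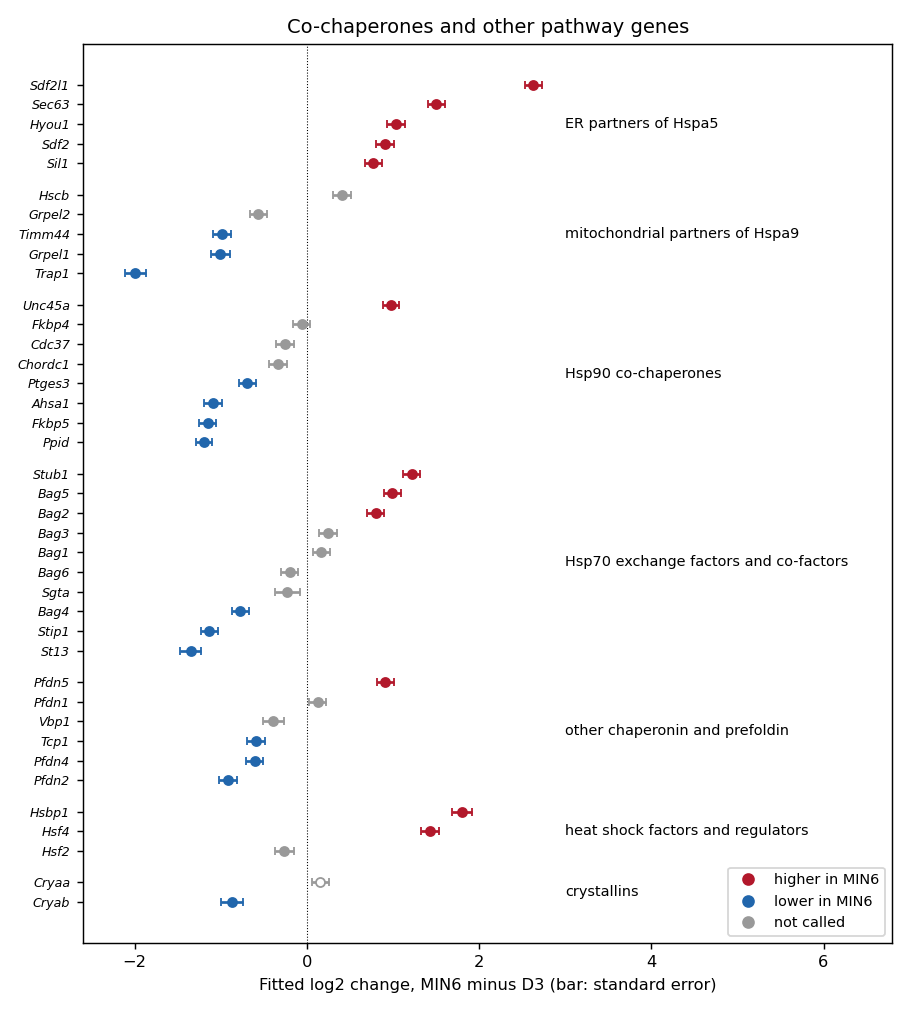
Fitted log2 change (MIN6 minus D3, x axis, bars are standard errors) of 39 co-chaperone and other pathway genes, 1 point per gene, grouped by list and colored by the outcome of the test, with an open point for a gene above background on no array. The 5 ER partners of Hspa5 lie between 0.77 and 2.63, and 3 mitochondrial partners of Hspa9 between -0.98 and -1.99.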

How the data were processed

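Total RNA of 3 D3 and 3 MIN6 samples, called independent in the series record, was hybridised to Illumina Mouse WG-6 v2.0 arrays. The deposited table held raw probe intensity on a linear scale for 45281 probes, with a detection score headed as a p-value that runs as 1 minus p by its values and was converted back. The authors also deposited a processed table of log2-like values, quantile-normalized with lumi per the methods, with a transformation that the sources do not state (r = 0.994 with the values below on D3 replicate 1). The sources used here do not name the software that made the raw table.

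Intensities were quantile-normalized between arrays, transformed to log2 and fitted on all probes with limma 3.58.1 in R 4.3.3 (lmFit, eBayes, MIN6 minus D3, no filter on signal, no background correction), with Benjamini-Hochberg adjustment over all 45281 probes and a fold threshold of 1.5. Dim signals keep their background, so fold changes of dim probes are understated. Genes came from the platform annotation (34885 probes with 1 symbol, 18 with several and 10378 with none), and all 77 member symbols matched RefSeq by gene identifier. Array medians were 134 to 188 before normalization, 34.4% to 35.9% of probes were above background, and arrays of 1 line correlated at 0.993 or more, against 0.835 to 0.838 between lines. The files name no slide, so that a slide effect cannot be told apart from the groups. The p-values measure the spread between these samples only.

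Promoters were read from RefSeq (GRCm38.p6). A bound took, for each array, the higher of the probe's own signal and the lowest signal above background. The members and gene lists were chosen with earlier results of these data known. Values on every array were given for the ER lumen members, for 9 core chaperones and for the 8 other members with the largest called fitted change in each direction. The other members were given by 1 value or by counts. Alternatives were another background correction (normexp, offset 16), median scaling, cyclic loess, detection filters, a trended prior, a replicate block, the authors' values, the methods' t-test, the mean of all probes, other fold thresholds, other list members and leaving out each array. The fitting steps were tested on simulated data. There, 17 of 50 probes changed by 1.5-fold and 45 of 50 changed by 2-fold were called, and 1 unchanged probe was called. A change near the threshold can therefore go uncalled.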

Additional observations from a re-analysis of the deposited data

How the results depend on the processing

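The counts of members higher and lower in MIN6 cells were 16 and 24 as reported and stayed between 14 and 20 and between 22 and 26 under other background corrections, normalizations, detection filters, probe averaging and tests at the same fold threshold, except for 15 and 20 with the authors' processed values. Without a fold threshold they were 22 and 27, and at 2-fold 13 and 17. Leaving out 1 array at a time gave 16 to 17 higher and 23 to 24 lower, 5 to 6 ER lumen members higher and 0 lower, and 8 cytosolic members higher and 19 lower each time. Without the CCT chaperonin 11 cytosolic members were lower. The ER lumen median of 0.98 on the log2 scale became 1.07 with normexp, 0.92 with median scaling, 1.13 with cyclic loess, 1.11 with a detection filter at p under 0.01, 0.83 with the mean of all probes and 0.86 with the ER membrane members added, and it lay between 0.93 and 1.03 with 1 array left out. The cytosolic median of -0.04 became -0.55 and -0.54 with detection filters at 0.01 and 0.05, which remove dim members, and lay between -0.08 and 0.02 with 1 array left out. Over only the members above background on all 6 arrays, an alternative chosen after seeing the data, the medians were 1.37 for the ER lumen and -0.77 for the cytosolic members, or 0.05 for the 20 of these outside the CCT chaperonin. Of 33 members named with their array values, 606 of 626 values over 19 settings kept the direction and the side of the threshold. Of the rest, 10 lost the call, 6 gained it and 4 changed sign. The detection filters, the trended prior, the replicate block, the t-tests and the other fold thresholds leave the log2 change as in the main fit. In those settings the sign could not change. The 2-fold threshold alone gave 3 of the lost calls, and dropping the fold threshold gave 3 of the gained calls. The sign changes were Dnajc16 at 0.30 with the mean of all probes, and Hspa8 at -0.13 with median scaling, -0.083 with the mean of all probes and -0.020 without MIN6 replicate 1 (-0.020 to 0.106 with 1 array left out). With normexp, Hspa13 (1.01) and Hspa1b (0.77) were called higher. For each of these the cause was not tested. The replicate numbers did not pair the samples (correlations of same-numbered deviations 0.026, 0.004 and -0.057 over 12261 probes), and with the replicate block the counts were again 16 and 24. A slide block was not run. Dim signals limit the folds of 8 members to lower bounds, and 14 members gave no signal above background on any array.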
